A study of Mus musculus with 54 samples.

Results

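The genes of the lipid droplet coat and of droplet lipolysis were followed in mice with mutations of the mitoribosomal protein gene Mrps12. They were chosen by name, and all 10 of them (Plin2, Plin3, Plin4, Plin5, Cideb, Cidec, Fitm1, Fitm2, G0s2 and Pnpla2) were found among the 54356 genes of both the heart and the liver table. RNA was taken from the whole heart and liver of 9 C57BL/6 mice, 3 each of Mrps12+/+, the error-prone mutant Mrps12ep/ep and the hyper-accurate mutant Mrps12ha/ha. All mice were male and 20 weeks old, all had eaten a high-fat diet (HFD) with 42% of its energy as fat, and wild-type and homozygous mice were matched for litter and age. The mutations are homozygous and present in every cell, and no mice on another diet are in these tables, so that the response to the diet itself cannot be read here. Each of the 54 sequenced libraries belonged to a mouse and a tissue, 3 technical libraries to each, and the values have 1 column per mouse and tissue, taken here as their pool.

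A lipid droplet is a core of triglyceride and sterol ester under a single layer of phospholipid, and a coat of proteins on that layer decides how readily lipases reach the core. Perilipins are the coat. CIDE proteins join droplets and let lipid pass from the smaller to the larger one, FIT proteins help to form droplets at the endoplasmic reticulum, and adipose triglyceride lipase (ATGL, encoded by Pnpla2) takes the first fatty acid from a triglyceride, a step that G0s2 holds back. The heart burns fatty acids that pass through small droplets beside its mitochondria, whereas the liver stores triglyceride in droplets when fat supply exceeds what it burns or exports, and several droplet genes are known targets of the fatty acid receptors PPARα and PPARγ.

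On the mouse genome GRCm38, 3 of the 4 perilipin genes lie on the minus strand of chromosome 17. Plin4 (56100591 to 56109803) ends 1.80 kb before Plin5 (56111601 to 56117596), and Plin3 (56277476 to 56292873) starts 160 kb further on. Plin2 lies on chromosome 4 (86648386 to 86670060, minus strand), Cidec on chromosome 6 (113424634 to 113435760, minus strand) and Pnpla2 on chromosome 7 (141455198 to 141460743, plus strand). G0s2 is on chromosome 1 (193272161 to 193273217) and Fitm2 on chromosome 2 (163466379 to 163472629), both on the minus strand. Fitm1 (55575617 to 55576954, plus strand) and Cideb (55754050 to 55758458, minus strand) lie 177 kb apart on chromosome 14. The 3' part of Cideb overlaps the last part of Nop9 on the other strand by 1.45 kb, and the authors quantified the reads by strand.

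Promoter sequences are shown for Plin2, Plin4 and Cidec. Liver values of Plin2 and Cidec spread widely between Mrps12+/+ mice, as did those of G0s2. Plin4 was lower in all livers of both mutants than in all Mrps12+/+ livers. The sequences are RefSeq's windows on GRCm38.p6, written 5' to 3'. They were cut to end where the gene coordinates given above start (for Plin2, at the end of a motif that crosses this point). Capitals mark AGGTCA (the half-site that nuclear receptors such as PPARs bind, read as TGACCT on the other strand), CACGTG (an E-box) and TATAAG (a variant of the TATA box).
Plin2, chr4:86670058-86670309, minus strand: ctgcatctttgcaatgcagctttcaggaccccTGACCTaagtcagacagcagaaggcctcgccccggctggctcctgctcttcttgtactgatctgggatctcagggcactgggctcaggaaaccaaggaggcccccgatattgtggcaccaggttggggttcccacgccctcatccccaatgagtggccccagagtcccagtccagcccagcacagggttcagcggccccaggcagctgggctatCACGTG
Plin4, chr17:56109804-56110032, minus strand: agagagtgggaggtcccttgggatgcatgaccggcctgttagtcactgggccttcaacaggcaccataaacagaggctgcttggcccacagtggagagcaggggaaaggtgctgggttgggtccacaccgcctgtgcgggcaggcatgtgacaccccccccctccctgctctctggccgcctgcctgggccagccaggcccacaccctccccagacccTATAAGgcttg
Cidec, chr6:113435761-113436010, minus strand: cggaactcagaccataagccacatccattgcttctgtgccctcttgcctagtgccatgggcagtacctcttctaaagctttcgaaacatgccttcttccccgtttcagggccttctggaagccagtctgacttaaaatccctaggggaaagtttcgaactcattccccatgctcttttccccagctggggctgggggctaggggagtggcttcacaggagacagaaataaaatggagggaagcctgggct
All 10 genes were matched to 12 windows of 300 bases, 250 before and 50 after a start site, of which Plin5 and Cidec had 2 each. Motifs were searched on both strands in these and in all 32851 windows of the table. The full PPAR element AGGTCANAGGTCA was in no window of the 10 genes and in 0.0396% of all windows, and AGGNCANAGGNCA, which contains it, in none and 0.381%. The half-site AGGTCA was in the windows of Plin2 and Plin5 and in 16.3% of all windows. CACGTG stood 4 bases upstream of the RefSeq start of Plin2 and was in 7.15% of all windows. TATAAG, searched after the sequences were read, was in 7.43% of all windows. It stood 32 bases upstream of the RefSeq start of Plin4 and 27 bases upstream of a RefSeq start of Plin5. These starts lie 21 and 48 bases inside the gene coordinates given above, so that TATAAG stands nearer to the end of the printed Plin4 sequence. TATAAA was found for Cideb alone among the 10 genes and in 13.6% of all windows, and the FoxO site GTAAACA for none of them and in 3.65%. These matches are descriptions of the letters in the windows.

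The normalized counts rested on 11202864 to 51480512 reads on genes in a heart and 21238166 to 81518015 in a liver, and the shallowest heart was that of Mrps12ha/ha mouse 2. Markers of the labelled tissue were abundant: 7 cardiomyocyte genes summed to 2006166 to 3479311 normalized counts in the hearts against 41.4 to 7580 in the livers, and 7 of the 8 hepatocyte genes listed were in the tables and summed to 4655496 to 6359458 in the livers against 125 to 14956 in the hearts. Some samples stood apart. Atrial transcripts over 6 genes were at 168607 and 123495 in Mrps12+/+ hearts 2 and 3. They were at 395401 and 95918 in Mrps12ep/ep hearts 2 and 3. The other hearts, which include all Mrps12ha/ha hearts, had 1759 to 10815. Erythroid transcripts were at 1412215 over 6 genes in Mrps12ha/ha heart 3, against 91893 to 464459 in the other hearts. Mrps12+/+ heart 3 (13798) and Mrps12ep/ep heart 2 (1770) were highest for the sum of 7 adipocyte genes, against 6.00 to 376 in the other hearts. These 7 were chosen from a list of 11 after their values were seen. Over all 11, Mrps12+/+ heart 3 was highest (255282) but Mrps12ep/ep heart 2 was lowest (148452). Mrps12+/+ livers 1 and 2 held transcripts of skeletal muscle (21754 and 27366 over 10 genes, against 26.7 to 161 in the other 7 livers). Mrps12+/+ liver 3 held acute phase transcripts at 1604659 over 7 genes, against 176682 to 232483 in the others. Mrps12 itself, whose mutations change the protein and which therefore need not change in level, had log2 fold changes of 0.03 to 0.23 in the 6 comparisons, with adjusted p-values from limma between 0.324 and 1.

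Levels were first compared between genes per length, as reads per kb of exon scaled to the reads on genes of each sample (RPKM). In the heart, the lipase gene Pnpla2 was the highest of the 10, with a median of 163 over the 9 mice (132 to 233), and lay above every other member in every mouse. A group of 6 genes followed whose ranges overlapped from one to the next, in the order Fitm1 (median 84.6), Plin4 (78.6), Plin5 (66.5), Fitm2 (65.1), G0s2 (50.6) and Plin3 (43.0). Plin2 was lower at 18.8 (16.5 to 25.3) and Cideb lower again at 2.83 (1.80 to 4.14), each without overlap with the gene above it. Cidec had the lowest median, 0.242, and by far the widest range, 0.0637 to 27.3.

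The liver had another order. Cideb, which the liver is known to use for the lipidation of VLDL, was highest with a median of 220 (177 to 244), followed by G0s2 at 189 (76.9 to 314) and Plin2 at 187 (102 to 418), and the ranges of these 3 overlapped. Pnpla2 (36.2), Fitm1 (35.98) and Plin5 (35.2) formed a second group, of which Pnpla2 did not overlap with Plin2 above it. Fitm2 (17.0), Plin3 (16.7), Plin4 (14.6) and Cidec (7.47) were lowest, and their ranges overlapped from one to the next. Set side by side, the liver median was 77.8 times the heart median for Cideb, 30.8 times for Cidec, 9.97 times for Plin2 and 3.73 times for G0s2. The heart median was 5.38 times the liver median for Plin4, 4.51 times for Pnpla2, 3.84 times for Fitm2, 2.57 times for Plin3, 2.35 times for Fitm1 and 1.89 times for Plin5. The ranges of the tissues overlapped for Cidec and Plin5 and for no other member. The tissues were normalized separately, and no test was made between them.

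**Figure D1:**
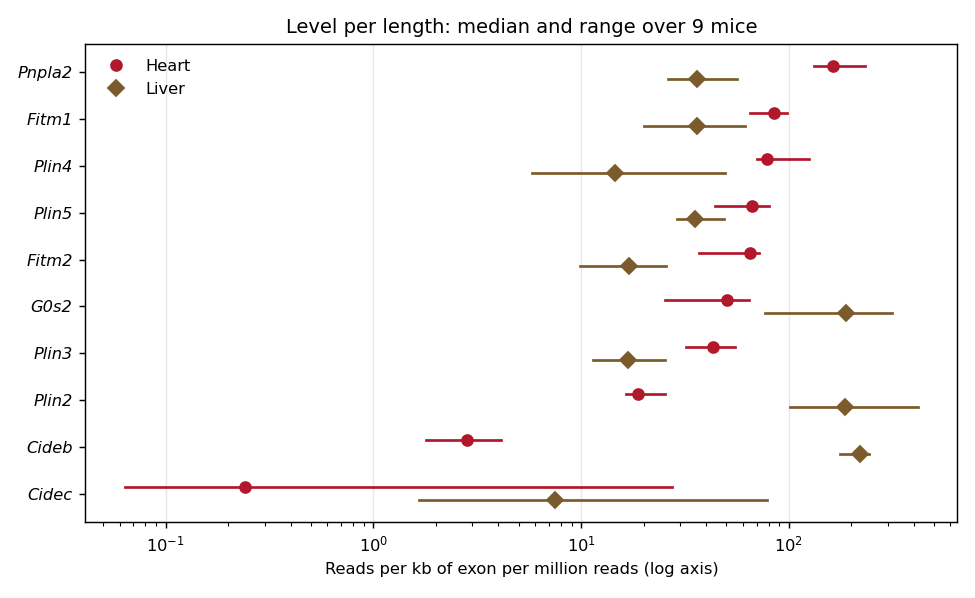
Level of each of the 10 genes in heart (circles) and liver (diamonds), in RPKM on a log axis. Points are medians and lines the range over the 9 mice of a tissue. Cideb and Plin2 lie far higher in the liver, Pnpla2, Plin4 and Fitm2 higher in the heart, and the line of Cidec in the heart runs from 0.0637 to 27.3.

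The question of the comparisons is whether an error-prone or a hyper-accurate mitoribosome changes these transcripts on the HFD. In limma, none of the 10 genes had an adjusted p under 0.05 in any of the 6 comparisons. All 10 passed the filter on low values in both tissues (10 or more normalized counts on average in a tissue's 9 mice), and fold changes are on the log2 scale of the normalized count plus 1, which understates those of low genes. The groups were 3 mice each, and an exact permutation test of 3 against 3 cannot go below a two-sided p of 0.1, which is the value for every pair of groups that did not overlap.

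In hearts of Mrps12ha/ha against Mrps12+/+ mice, 0 of the 10 genes passed the threshold, where 0.0311% of the 16057 genes tested did (5 genes), and 0 had an unadjusted p under 0.05 in limma (19.7% of all genes) or in limma-voom. The mice of the 2 genotypes did not overlap for 1 of the 10, Fitm1, against 21.2% of all tested genes. The median log2 fold change of the 10 was -0.33, with 9 below 0, and that of all tested genes -0.02. In hearts of Mrps12ep/ep against Mrps12+/+ mice, 0 passed, as did 0% of all genes, and 1 had an unadjusted p under 0.05 with either method (1.69% of all genes in limma). The groups did not overlap for Plin5 alone, 1 of 10 against 8.03% of all genes, and the median of the 10 was -0.23 (9 below 0) against -0.01. In hearts of Mrps12ha/ha against Mrps12ep/ep mice, 0 passed against 0.0249%, 1 had an unadjusted p under 0.05 with either method (17.9% of all genes in limma), and Fitm1 alone did not overlap, 1 of 10 against 16.6%. Here the median of the 10 was -0.06, with 5 below 0, against -0.02 for all genes. Shares of 1 in 10 lay below or near those of all genes in the 3 comparisons. The 3 Mrps12+/+ mice served as controls for both mutants.

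In livers of Mrps12ha/ha against Mrps12+/+ mice, 0 of the 10 passed, against 0.00653% of 15314 genes (1 gene), and 1 had an unadjusted p under 0.05 in limma (14.1% of all genes) and in limma-voom. The groups did not overlap for Plin4, 1 of 10 against 19.9% of all genes, and the median of the 10 was 0.01, with 5 below 0, against -0.02. In livers of Mrps12ep/ep against Mrps12+/+ mice, 0 passed against 0.00653%, 2 had an unadjusted p under 0.05 with either method (9.74% of all genes in limma), and Plin4 again was the gene that did not overlap, 1 of 10 against 12.8%. The median was -0.57, with 8 below 0, where that of all genes was -0.01. In livers of Mrps12ha/ha against Mrps12ep/ep mice, 0 passed against 0.00653%, and 2 had an unadjusted p under 0.05 with either method (8.62% of all genes in limma). Here 3 of the 10 did not overlap, Plin3, G0s2 and Pnpla2, all higher in Mrps12ha/ha, against 17.8% of all genes, and the median was 0.47, with 9 above 0, against -0.0017.

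**Figure D2:**
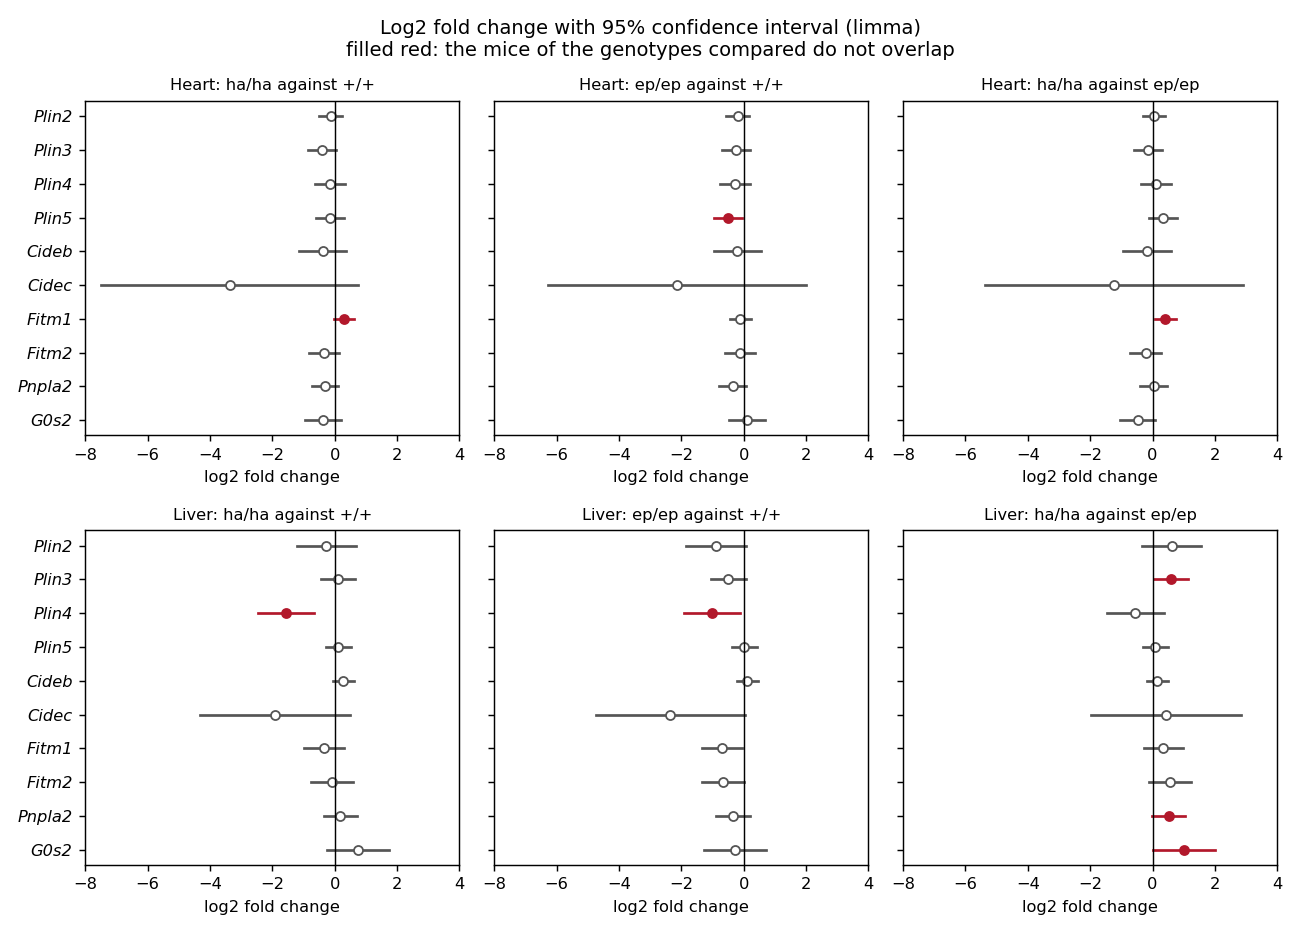
Log2 fold change (points) and its 95% confidence interval from limma (lines) for each gene in the 6 comparisons, hearts above and livers below. Filled red marks the 8 cases in which the mice of the genotypes compared did not overlap, and the widest intervals in every panel are those of Cidec.

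Plin2, the perilipin that coats droplets in most cells and whose protein is kept only while it sits on a droplet, was even between hearts and uneven between livers. In the heart it measured 2939, 1858 and 2384 normalized counts in the 3 Mrps12+/+ mice, 2210, 1869 and 2141 in Mrps12ep/ep and 2045, 2310 and 2083 in Mrps12ha/ha mice. In the liver it measured 21202, 51787 and 78515 in Mrps12+/+, 20971, 34874 and 18854 in Mrps12ep/ep and 39566, 30666 and 40543 in Mrps12ha/ha mice. The Mrps12+/+ livers alone spanned almost the whole range of the 9, from close to the lowest to the highest. Their mean was 50501 ± 28679 (SD, n = 3), against 24900 ± 8702 in Mrps12ep/ep, a log2 fold change of -0.88 (95% interval -1.84 to 0.07, adjusted p = 0.534), and 36925 ± 5443 in Mrps12ha/ha livers (-0.27, -1.22 to 0.69, adjusted p = 0.811).

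Plin3, a perilipin found in the cytosol and on nascent droplets of most tissues, had 6893, 4905 and 6533 normalized counts in Mrps12+/+ hearts, 5838, 3974 and 5689 in Mrps12ep/ep and 4007, 5503 and 4325 in Mrps12ha/ha hearts. The groups overlapped, and Mrps12ha/ha against Mrps12+/+ hearts gave a log2 fold change of -0.40 (-0.85 to 0.04, adjusted p = 0.278). In the liver it had 2192, 3174 and 5141 in Mrps12+/+, 2195, 2434 and 2424 in Mrps12ep/ep and 3334, 3645 and 3652 in Mrps12ha/ha mice. The mutants were tight, at 2351 ± 135 and 3544 ± 181 (SD, n = 3), and did not overlap, with a log2 fold change of 0.59 in Mrps12ha/ha against Mrps12ep/ep (0.04 to 1.15, adjusted p = 0.568, exact permutation p = 0.1). The Mrps12+/+ livers reached from below both to above both.

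Plin4, the perilipin of fat, heart and skeletal muscle, was the member that separated the livers of both mutants from the controls. It measured 5715, 6088 and 15162 normalized counts in Mrps12+/+ livers, 3703, 5201 and 3331 in Mrps12ep/ep and 4270, 1874 and 2557 in Mrps12ha/ha livers. Every mutant liver was below every Mrps12+/+ liver, and Mrps12+/+ liver 3 stood at more than any other. Means were 8988 ± 5350, 4079 ± 990 and 2900 ± 1234 (SD, n = 3). The log2 fold change was -1.56 in Mrps12ha/ha (95% interval -2.46 to -0.66, adjusted p = 0.159) and -1.01 in Mrps12ep/ep livers (-1.91 to -0.11, adjusted p = 0.480), with an exact permutation p of 0.1 each. Both mutants were set against the same 3 controls. Skeletal muscle transcripts were high in Mrps12+/+ livers 1 and 2, whereas liver 3, where Plin4 was highest, had 54.6 normalized counts over the 10 muscle genes, 5 of them at 0, and was the liver with high acute phase transcripts. Other marker sums separated the same livers. The 11 adipocyte markers summed to 5354.5 to 7540.5 in Mrps12+/+, 2749 to 4656 in Mrps12ep/ep and 3351 to 4568.5 in Mrps12ha/ha livers, the same direction as Plin4, with 0 or 1 of the 11 at 0 in Mrps12+/+ and 2 to 5 in mutant livers. The 7 hepatocyte genes went the other way, at 4655496 to 5498990 in Mrps12+/+, 5849701 to 6359458 in Mrps12ep/ep and 5748383 to 6320848 in Mrps12ha/ha livers. The sum of the 7 adipocyte genes, a choice made after the values were seen, did not separate all controls from the mutants. It was 791, 1297 and 588.5 in Mrps12+/+ livers 1 to 3, 418 to 718 in Mrps12ep/ep and 593 to 726 in Mrps12ha/ha livers. The part of these markers in the Plin4 values was not tested. Without Mrps12+/+ liver 3 the log2 fold changes were -1.11 and -0.56. The controls were then only livers 1 and 2, those with skeletal muscle transcripts. The groups still did not overlap, as for 29.5% and 19.0% of all tested genes. In these bulk samples, fewer cells of a type and less RNA per cell cannot be told apart.

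In the heart Plin4 was 13589, 15901 and 23329 in Mrps12+/+, 14557, 11872 and 16630 in Mrps12ep/ep and 13461, 15369 and 17497 in Mrps12ha/ha mice, and the 3 genotypes overlapped. The heart with 23329 was Mrps12+/+ heart 3, the one with the most adipocyte transcripts, and their part in the value was not tested.

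Plin5, which ties droplets to mitochondria in tissues that burn fat and binds ATGL and its co-activator, was the one perilipin whose hearts separated. Mrps12+/+ hearts lay close together at 5216, 5230 and 5435 normalized counts, Mrps12ep/ep hearts at 4649, 2712 and 4153 and Mrps12ha/ha hearts at 4046, 5681 and 4584. All Mrps12ep/ep hearts were below all Mrps12+/+ hearts, 3838 ± 1006 against 5294 ± 122.6 (SD, n = 3), a log2 fold change of -0.50 (-0.95 to -0.05, adjusted p = 1, exact permutation p = 0.1). The lowest value was that of Mrps12ep/ep heart 2, which also had the highest sum of atrial transcripts of the 9 hearts (395401 over 6 genes), and without it the log2 fold change was -0.27. In the liver Plin5 ranged from 3233 to 5141 over the 9 mice with all genotypes overlapping, and its log2 fold changes were between 0.03 and 0.12. In the livers the neighbouring genes Plin4 and Plin5 had different orders of mice, and Mrps12+/+ liver 3 had the highest Plin4 and the lowest Plin5.

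**Figure D3:**
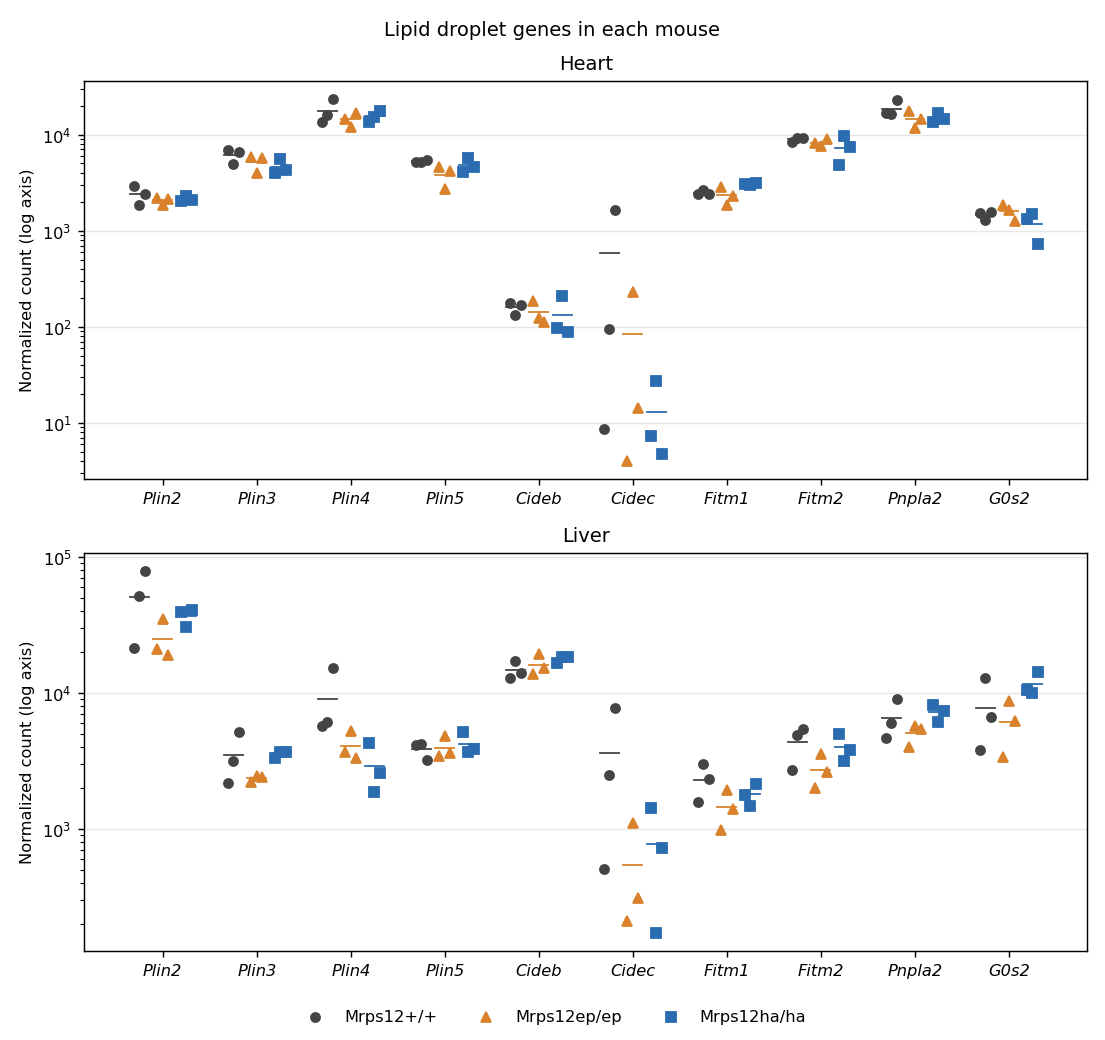
Normalized count of each gene in each mouse on a log axis, hearts above and livers below. Circles are Mrps12+/+, triangles Mrps12ep/ep and squares Mrps12ha/ha mice, and the short lines are the means of 3 mice. Plin4 in the liver shows all mutant mice below the controls, and Cidec spreads over more than any other gene in both tissues.

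Cidec, which fuses droplets into large ones and marks fat cells and fatty livers, varied most. Its hearts measured 8.60, 95.2 and 1642 normalized counts in Mrps12+/+, 4, 233 and 14.5 in Mrps12ep/ep and 7.40, 27.2 and 4.80 in Mrps12ha/ha mice. The highest heart was 411 times the lowest, which rested on 4 reads. The 3 highest hearts, Mrps12+/+ 3, Mrps12ep/ep 2 and Mrps12+/+ 2, were also the 3 highest for the sum of 7 adipocyte genes (Adipoq, Lep, Retn, Cfd, Plin1, Ucp1 and Adrb3, the part of an 11-gene adipocyte list that was chosen after the values were seen), at 13798, 1770 and 376 normalized counts against 6.00 to 54.4 in the other 6. Plin1, the perilipin of adipocytes, measured 2893 in Mrps12+/+ heart 3, 332 in Mrps12ep/ep heart 2, 136 in Mrps12+/+ heart 2 and 0 to 20.2 in the others. All 11 adipocyte genes, which include Lpl and Fabp4 that the heart expresses, summed to 194698 to 255282 in Mrps12+/+, 148452 to 242611 in Mrps12ep/ep and 207135 to 240197 in Mrps12ha/ha hearts, with 4 of the 11 at 0 in Mrps12ep/ep heart 1 and none at 0 in the 3 hearts highest for Cidec. The sum of all 11 did not follow Cidec. It was highest in Mrps12+/+ heart 3, but Mrps12ep/ep heart 2 (148452) and Mrps12+/+ heart 2 (194698) had the lowest sums of the 9, and Lpl, the most abundant gene of the list, was lowest in Mrps12ep/ep heart 2 at 125491. The log2 fold change of Cidec was -3.37 in Mrps12ha/ha against Mrps12+/+ hearts (95% interval -7.50 to 0.76, adjusted p = 0.311), and without Mrps12+/+ heart 3 and Mrps12ep/ep heart 2 it was -1.45.

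In the liver Cidec had 506, 2474 and 7770 normalized counts in Mrps12+/+, 210, 1112 and 313 in Mrps12ep/ep and 1426, 171 and 729 in Mrps12ha/ha mice. The highest liver was 45.4 times the lowest, and the genotypes overlapped, since Mrps12+/+ liver 1 was below 1 Mrps12ep/ep and 2 Mrps12ha/ha livers. Log2 fold changes were -2.35 in Mrps12ep/ep (-4.75 to 0.05, adjusted p = 0.518) and -1.92 in Mrps12ha/ha livers (-4.32 to 0.48, adjusted p = 0.448). In the liver with most Cidec, Mrps12+/+ liver 3, the adipocyte genes differed among themselves. Plin1 was at 1.60, Adipoq at 2.40, Retn at 3.30, Lep at 6.50 and Ucp1 at 0 normalized counts, whereas Cfd was at 408, against 489 in Mrps12+/+ liver 2 and 56.0 to 190 in the other 7, and Cidea was at 647, against 702 in Mrps12+/+ liver 2 and 0.700 to 50.0 in the other 7. Summed over all 11 adipocyte genes, every Mrps12+/+ liver was above every mutant liver, and their part in the Cidec values was not tested. The 7 adipocyte genes summed to 418 to 1297 over the livers without following Cidec throughout, and most of that sum was Adrb3 and Cfd. Mrps12+/+ liver 2 had the highest sum of the 7 and, after liver 3, the most Cidec. It also had the highest liver values of Adipoq (118), Lep (204), Plin1 (111) and Retn (34.8). The part of these transcripts in its Cidec value was not tested.

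**Figure D4:**
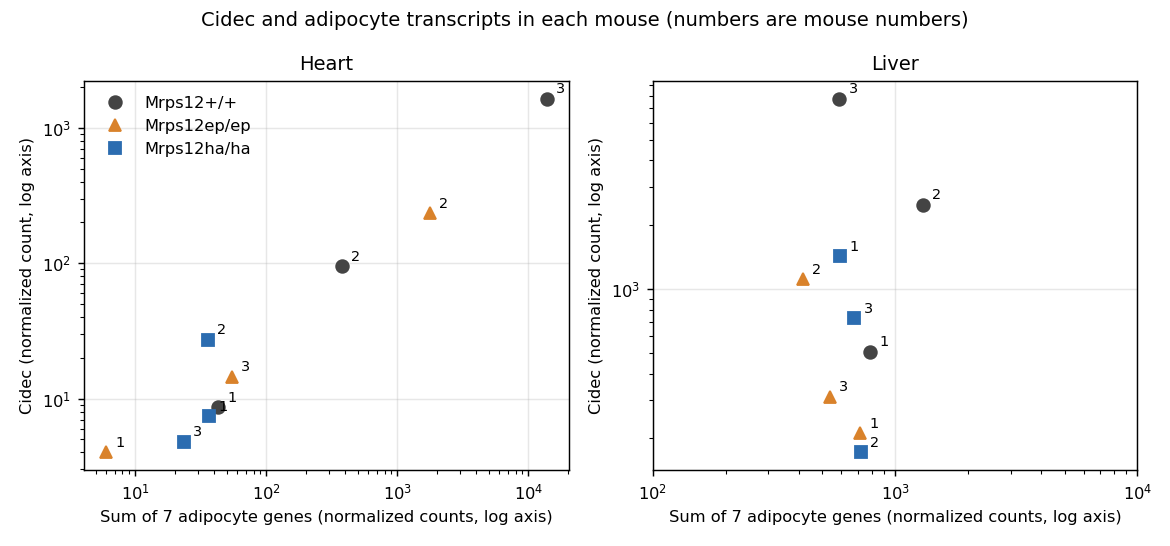
Cidec against the sum of 7 adipocyte genes in each mouse, both in normalized counts on log axes, hearts left and livers right. Symbols give the genotype and numbers the mouse. The 7 genes were chosen from a list of 11 after their values were seen, and the sum of all 11 did not follow Cidec in the hearts. The 3 hearts with the most Cidec lie at the right with the highest sums of the 7. The liver with the most Cidec (7770) lies within the range of the others.

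Cideb, the CIDE protein of hepatocytes, ranged from 12924 to 19238 in the liver, the narrowest range of the 10 genes in that tissue (highest over lowest 1.49), and from 88.5 to 208 in the heart. Its log2 fold changes had absolute values of at most 0.38 and the genotypes overlapped in all 6 comparisons. In the heart its highest values, 208 in Mrps12ha/ha heart 2, 187 in Mrps12ep/ep heart 1 and 179 in Mrps12+/+ heart 1, came from the 3 hearts in which hepatocyte genes summed highest, 14768, 12192 and 14956 normalized counts against 125 to 6138 in the other 6, and the part of these in the values was not tested.

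Fitm1, the FIT protein of heart and skeletal muscle, was higher in the Mrps12ha/ha hearts. It measured 2405, 2637 and 2385 normalized counts in Mrps12+/+, 2857, 1851 and 2288 in Mrps12ep/ep and 3043, 2963 and 3132 in Mrps12ha/ha hearts. Every Mrps12ha/ha heart was above every heart of the other genotypes, and the Mrps12ha/ha values were the tightest, at 3046 ± 84.7 against 2476 ± 140 and 2332 ± 504 (SD, n = 3). The log2 fold change was 0.30 against Mrps12+/+ (-0.03 to 0.63, adjusted p = 0.281) and 0.41 against Mrps12ep/ep hearts (0.07 to 0.74, adjusted p = 0.250), with an exact permutation p of 0.1 each. Cardiomyocyte transcripts were also highest in Mrps12ha/ha hearts, at 2693655 to 3479311 over 7 genes against 2273539 to 2592386 in Mrps12+/+ and 2006166 to 2659018 in Mrps12ep/ep hearts, and mesothelium markers lowest, at 313 to 526 over 6 genes against 868 to 1862 and 639 to 3019. Atrial sums were 4645 to 10815 over 6 genes in Mrps12ha/ha, 8219 to 168607 in Mrps12+/+ and 1759 to 395401 in Mrps12ep/ep hearts. Mrps12ep/ep heart 2, the lowest for Fitm1, had the highest mesothelium and atrial sums. The part of these markers in the Fitm1 values was not tested. When limma weighted each heart by its quality the adjusted p against Mrps12ep/ep was 0.0118. In that fit 6314 of the 16057 genes tested were called, 1 of the 10 among them.

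In the liver Fitm1 had 1583, 2999 and 2339 in Mrps12+/+, 986, 1947 and 1392 in Mrps12ep/ep and 1766, 1469 and 2140 in Mrps12ha/ha mice. The genotypes overlapped, and the log2 fold change of Mrps12ep/ep against Mrps12+/+ livers was -0.68 (-1.32 to -0.05, adjusted p = 0.491). Mrps12+/+ livers 1 and 2, which held skeletal muscle transcripts, had 1583 and 2999 of Fitm1, the second the highest liver. The 7 livers with 26.7 to 161 normalized counts over the muscle genes had 986 to 2339 of Fitm1. The part of the muscle transcripts in the Fitm1 values was not tested.

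Fitm2, the FIT protein found in most tissues, was 8434, 9184 and 9130 in Mrps12+/+, 8082, 7574 and 8982 in Mrps12ep/ep and 4812, 9580 and 7506 in Mrps12ha/ha hearts. The Mrps12ha/ha hearts held both the highest and the lowest value, and the log2 fold change against Mrps12+/+ was -0.34 (-0.83 to 0.14, adjusted p = 0.366). Mrps12ha/ha heart 2, the shallowest sample, was on the other side of the controls from hearts 1 and 3. Without it the log2 fold change was -0.57, with an adjusted p of 0.0454 in limma. Then 4330 of the 16057 genes tested were called in place of 5, 1 of the 10 among them. Without it, too, 7 of the 10 genes did not overlap between Mrps12ha/ha and Mrps12+/+ hearts, Fitm1 higher and Plin3, Plin5, Cideb, Cidec, Fitm2 and Pnpla2 lower, where 58.3% of all tested genes then did not overlap. In the liver Fitm2 ranged from 1993 to 5458 with all genotypes overlapping, and the lowest log2 fold change was -0.65 in Mrps12ep/ep against Mrps12+/+ livers (-1.32 to 0.02, adjusted p = 0.521).

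Pnpla2, which encodes ATGL, was 16595, 16333 and 22792 in Mrps12+/+, 17537, 11683 and 14558 in Mrps12ep/ep and 13439, 16686 and 14391 in Mrps12ha/ha hearts. The genotypes overlapped, with log2 fold changes of -0.31 in Mrps12ha/ha (-0.74 to 0.12, adjusted p = 0.355) and -0.35 in Mrps12ep/ep hearts (-0.78 to 0.08, adjusted p = 1). In the liver it was 4655, 6006 and 9081 in Mrps12+/+, 4017, 5729 and 5418 in Mrps12ep/ep and 8147, 6079 and 7403 in Mrps12ha/ha mice. All Mrps12ha/ha livers were above all Mrps12ep/ep livers, by a log2 fold change of 0.52 (-0.01 to 1.05, adjusted p = 0.598, exact permutation p = 0.1), and the Mrps12+/+ livers overlapped with both.

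G0s2, the inhibitor of ATGL, was 1524, 1287 and 1573 in Mrps12+/+, 1861, 1643 and 1269 in Mrps12ep/ep and 1309, 1492 and 730 in Mrps12ha/ha hearts, with overlap throughout. The lowest heart was that of Mrps12ha/ha mouse 3. This heart also had the highest erythroid sum, 1412215 over 6 genes against 91893 to 464459 in the others, and its part in the G0s2 values was not tested. The log2 fold change of Mrps12ha/ha against Mrps12+/+ hearts was -0.37 (-0.94 to 0.20, adjusted p = 0.403). With a weight for each heart in limma it was -0.68 with an adjusted p of 0.0423. In that fit 5573 of the 16057 genes tested were called, 1 of the 10 among them. In the liver G0s2 was 3814, 12906 and 6637 in Mrps12+/+, 3395, 8722 and 6181 in Mrps12ep/ep and 10486, 10041 and 14347 in Mrps12ha/ha mice. The Mrps12ha/ha livers, at 11625 ± 2368, were all above the Mrps12ep/ep livers, at 6099 ± 2664 (SD, n = 3), a log2 fold change of 1.01 (0.02 to 2.01, adjusted p = 0.576, exact permutation p = 0.1). The lipase and its inhibitor were both higher in Mrps12ha/ha than in Mrps12ep/ep livers, and neither passed the threshold.

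The 10 genes did not vary alike over the mice of a tissue. In the liver Mrps12+/+ liver 3 held the highest value of 6 of the 10 (Plin2, Plin3, Plin4, Cidec, Fitm2 and Pnpla2) and the lowest of 1 (Plin5), and Mrps12ep/ep liver 1 held the lowest value of 4 (Fitm1, Fitm2, G0s2 and Pnpla2). Without liver 3, Plin3 and Pnpla2 were higher and Plin4 lower in all Mrps12ha/ha than in both other Mrps12+/+ livers, 3 of 10 against 29.5% of all tested genes, and Plin4 alone was apart in Mrps12ep/ep livers, 1 of 10 against 19.0%. In the heart Mrps12ep/ep heart 2 held the lowest value of 5 of the 10 (Plin3, Plin4, Plin5, Fitm1 and Pnpla2), and Mrps12+/+ heart 3 and Mrps12ha/ha heart 2 the highest of 3 each. The 2 hearts highest for the sum of the 7 adipocyte genes were also left out. Without them Fitm1 stayed apart in Mrps12ha/ha against Mrps12+/+ hearts, 1 of 10 against 27.1% of all genes. Plin5 stayed apart in Mrps12ep/ep against Mrps12+/+ hearts, 1 of 10 against 26.04%. Fitm1 and Plin3 were then apart in Mrps12ha/ha against Mrps12ep/ep hearts, 2 of 10 against 25.3%.

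**Figure D5:**
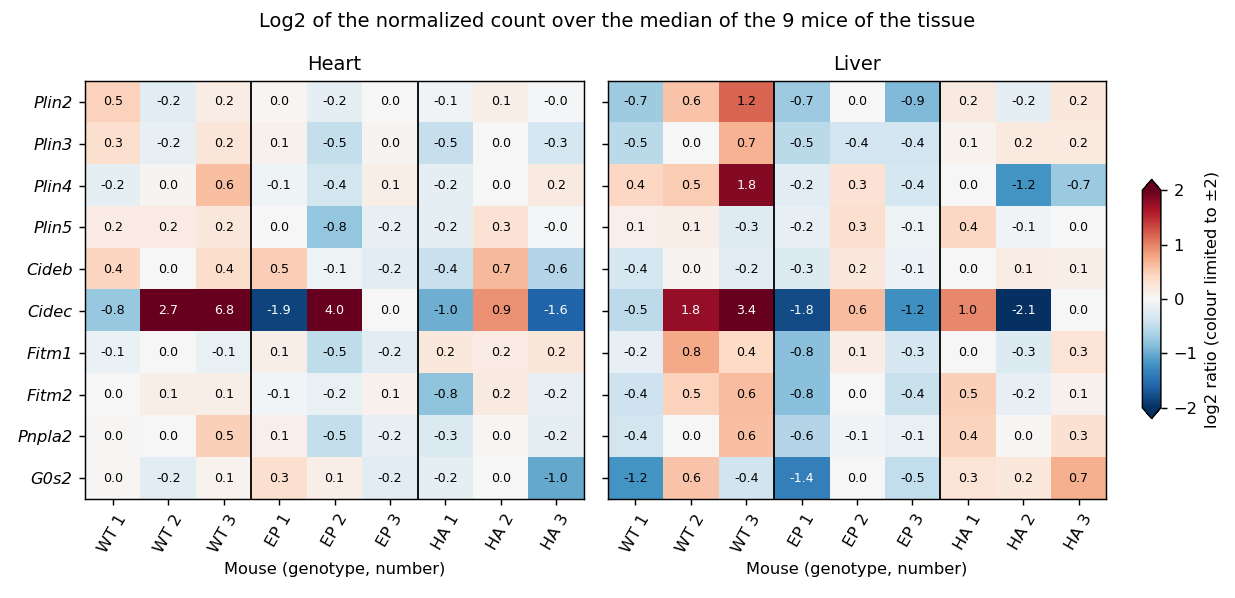
Log2 of each normalized count over the median of the 9 mice of the tissue, hearts left and livers right, with mice of Mrps12+/+ (WT), Mrps12ep/ep (EP) and Mrps12ha/ha (HA) in columns. Red is above and blue below the median, and the colour is limited to 2 in either direction. Mrps12+/+ liver 3 lies above the median for 7 genes, by up to 3.4 for Cidec, and the row of Cidec holds the strongest colours in both tissues.

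Genes around the droplet were taken from lists of the same pathway. In the heart 1 gene of the 7 lists passed the threshold and in the liver none did. Of 10 other genes of lipolysis (lipases, their co-activator and carboxylesterases), each was tested in both tissues, 0 passed in any comparison, and the medians of their log2 fold changes were -0.43 in Mrps12ha/ha and -0.41 in Mrps12ep/ep hearts and 0.35 and 0.08 in the livers, each against Mrps12+/+. Of 14 genes of triglyceride synthesis, 12 could be tested in hearts and 13 in livers, 0 passed, and the medians in the same order were -0.38, -0.20, 0.05 and -0.05. Of 14 genes of droplet formation and other coat proteins 0 passed, with medians of -0.10, -0.10, -0.02 and -0.18. Of 18 PPAR targets, 17 tested in the heart, 0 passed. Their medians were -0.32, -0.53, -0.12 and -0.63, with 14 of 17, 16 of 17, 11 of 18 and 17 of 18 below 0. In the same comparisons the median of all tested genes was between -0.02 and -0.01. Of the lipolysis genes in the hearts, 2 lay above 0 and 8 below in each mutant against Mrps12+/+. Mgll was higher in all Mrps12ha/ha hearts, at 12762, 8982 and 12330 normalized counts against 7261, 6375 and 6726. Ces3a, abundant in the livers at 53393 to 128137, was at 304, 1.70 and 3.60 in Mrps12ep/ep and 326, 83.1 and 137 in Mrps12+/+ hearts. The part of hepatocyte transcripts in the lipolysis medians was not tested. Of the 6 PPARs and their partners and the 13 clock genes 0 passed either. In Mrps12ha/ha hearts 10 of the 13 clock genes had an unadjusted p under 0.05 in limma against Mrps12+/+ (19.7% of all genes). Against Mrps12ep/ep hearts 10 of the 13 did as well (17.9% of all genes). Their medians there were 0.20 and 0.43, each with 8 above 0 and 5 below. In the other comparisons 1 to 6 did, against 1.69% to 14.1% of all genes. Of the 12 FoxO and fasting genes, 11 tested in the heart, 1 passed.

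That gene was Irs2, the adaptor of the insulin receptor and a target of FoxO factors, which fell in Mrps12ha/ha hearts to 311 ± 45.8 normalized counts from 1056 ± 178 in Mrps12+/+ hearts (SD, n = 3). Its log2 fold change was -1.76 and its adjusted p 0.0291 in limma, with a range of 0.00296 to 0.134 over the 17 alternatives. The p lay above the threshold in limma-voom, with the replicate block, and without any single Mrps12+/+ heart, Mrps12ep/ep heart 1 or 3, or Mrps12ha/ha heart 1 or 3. Where no gene passed, the 3 with the smallest p were read, and none of those that follow passed. In Mrps12ep/ep against Mrps12+/+ hearts they were Cyp4a14, a PPARα target (21.8, 1.20 and 4.50 against 224.8, 29.4 and 41.5), the clock repressor Nr1d1 (5888 ± 670 against 4462 ± 525) and Agpat2, an acyltransferase of triglyceride synthesis (1411 ± 228 against 2105 ± 558), with an adjusted p of 1 each. Cyp4a14 is abundant in the livers, at 8430 to 78644, and the 7 hepatocyte genes in the same hearts summed to 12192, 125 and 861 in Mrps12ep/ep and 14956, 4002 and 6138 in Mrps12+/+ mice. Their part in the Cyp4a14 values was not tested. In Mrps12ha/ha against Mrps12ep/ep hearts they were Irs2 (adjusted p = 0.157), the uncoupling protein gene Ucp3 (3978 ± 1350 against 1621 ± 190, adjusted p = 0.179) and Angptl4, the PPAR target that inhibits lipoprotein lipase. Angptl4 was 1195, 1235 and 2095 in Mrps12ha/ha and 542, 495 and 460 in Mrps12ep/ep hearts (adjusted p = 0.179).

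In the liver the gene of this kind nearest to the droplet was Dgat2, which makes triglyceride from diacylglycerol. It measured 17962, 18948 and 17523 normalized counts in Mrps12+/+, 20665, 24227 and 25268 in Mrps12ep/ep and 25257, 27022 and 25833 in Mrps12ha/ha livers. All mutant livers were above all controls, with log2 fold changes of 0.36 (adjusted p = 0.410) and 0.52 (adjusted p = 0.113). The sum of the 7 hepatocyte genes given above was also higher in all mutant livers than in all controls, and its part in the Dgat2 values was not tested. Plin4 in the same livers went the other way. The other genes with the smallest p in Mrps12ha/ha against Mrps12+/+ livers were Tat, a fasting gene of tyrosine breakdown (55455 ± 7288 against 161951 ± 51047, adjusted p = 0.0722), and the clock gene Per3 (1399 ± 77.3 against 580 ± 171, adjusted p = 0.119). In Mrps12ep/ep against Mrps12+/+ livers they were Pdk4, a PPAR target that restrains pyruvate oxidation (551 ± 238 against 1724 ± 703, adjusted p = 0.342), and Ucp3, which was listed at 0 in all 3 Mrps12ep/ep livers and at 34.3, 74.4 and 5.70 in Mrps12+/+ livers (adjusted p = 0.244), of which the first and the second held the skeletal muscle transcripts. In Mrps12ha/ha against Mrps12ep/ep livers they were Tat (adjusted p = 0.0706), the gluconeogenic gene Pck1 (122938 ± 23144 against 221378 ± 8595, adjusted p = 0.417) and Per3 (adjusted p = 0.417).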

How the data were processed

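Whole-heart and whole-liver RNA of 9 mice was sequenced by the submitters. Per the labels and the methods, reads were trimmed with Trim Galore 0.4.1 and cutadapt 1.18, checked with FastQC 0.11.8, quantified by strand with Salmon 1.1.0 on GENCODE vM21 (GRCm38.p6) and summed to genes, without mitochondrial transcripts. The values the authors deposited are counts that they divided by DESeq2 size factors, read here as a score, with 1 column per mouse and tissue. Deposited tables of fold changes and p-values for the authors' own comparisons were not used.

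In each column 100% of the low values were whole multiples of 1 step (tolerance 0.1 of a step), which gave whole reads and the depth. These were used for levels per kb of merged exon and for limma-voom. Normalized counts plus 1 were taken to log2 and fitted with limma 3.58.1 in R 4.3.3 (lmFit, eBayes with trend), 9 mice of a tissue in 1 fit, for 16057 genes in the heart and 15314 in the liver with a mean of at least 10, and p-values were adjusted by Benjamini-Hochberg over all of them (threshold 0.05). The fit was tested on simulated data. Single genes were also compared by a two-sided exact permutation test over the 20 splits of 3 against 3 mice. The mice are separate animals, and the spread covers animals and libraries together. Python 3.11.15 with pandas 2.3.3 and numpy 2.4.6 was used for the rest.

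The 10 genes and the other lists were chosen with earlier results of these data known. Named besides the 10 are Mrps12 and, of the pathway lists, the genes that passed in a comparison or, where none did, the 3 with the smallest p; other genes named were chosen after their values were seen. Alternatives were a pseudocount of 8, no filter, quantile normalization, array weights, a block for the replicate number, only the 2 genotypes compared and leaving out each mouse, and, added after the data were seen, limma-voom and the omission of 2 hearts.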

Additional observations from a re-analysis of the deposited data

How the results depend on the processing

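Of the 10 genes, 1 was called under array weights in each of the heart comparisons of Mrps12ha/ha (G0s2 against Mrps12+/+, Fitm1 against Mrps12ep/ep, log2 fold change 0.42) and 1 (Fitm2) in Mrps12ha/ha against Mrps12+/+ hearts without Mrps12ha/ha mouse 2. In these cases 5573, 6314 and 4330 of the 16057 genes tested were called. The count of the 10 was otherwise 0. With each mouse left out it was 0 to 1 in Mrps12ha/ha against Mrps12+/+ hearts. Of the 60 pairs of a gene and a comparison, 39 kept the sign of the log2 fold change in all alternatives and 21 did not. The 8 folds of the genes whose groups did not overlap kept their sign in all 131 alternative values, and 1 of these passed the threshold. The lowest adjusted p of the 10 in the liver under any alternative was 0.0689.

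The count over all genes moved more. In hearts of Mrps12ha/ha against Mrps12+/+ mice it was 5, with array weights 5573 and with limma-voom 3. It was 8 without the 2 hearts highest for the 7 adipocyte genes, and 3 to 4330 with each mouse left out. In Mrps12ha/ha against Mrps12ep/ep hearts it was 4, with array weights 6314 and with each mouse left out 3 to 3730. Both high counts with a mouse left out were those without Mrps12ha/ha heart 2. In Mrps12ep/ep against Mrps12+/+ hearts it was 0 (271 genes had an unadjusted p under 0.05 in limma), 1 with a pseudocount of 8 and with only the 2 genotypes, 2 without the filter, with quantile normalization and with limma-voom, 3 with array weights and 0 to 1 with each mouse left out. In the liver it was 1 in each comparison. Mrps12ha/ha against Mrps12+/+ livers gave 3 without the filter, 4 with array weights, 0 with limma-voom and 0 to 90 with each mouse left out, 90 without Mrps12+/+ mouse 2. Mrps12ep/ep against Mrps12+/+ livers gave 2 without the filter, 0 with only the 2 genotypes and with limma-voom, and 1 to 68 with each mouse left out, 68 without Mrps12+/+ mouse 3. Mrps12ha/ha against Mrps12ep/ep livers gave 13 with array weights, 18 with only the 2 genotypes and 0 to 11 with each mouse left out. The cause of these moves was not tested.

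The replicate numbers were not shown to pair the mice: deviations from the group means of same-numbered mice correlated at -0.231 to 0.578 in the heart and -0.133 to 0.164 in the liver, over 0.1 in 2 of 9 pairs in each, and a mouse correlated best with its own number in 3 of 9 and 2 of 9 cases. With the replicate block the count was 3 in Mrps12ha/ha against Mrps12+/+ hearts, and 7, 9 and 6 in livers of Mrps12ha/ha against Mrps12+/+, Mrps12ep/ep against Mrps12+/+ and Mrps12ha/ha against Mrps12ep/ep mice. Count models on the recovered reads, planned as alternatives, were not run. With 3 mice a group and 11202864 reads on genes in the shallowest heart, low values such as those of Cidec in the heart rest on few reads.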

Other observations

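Of the other droplet genes, chosen here after their values were seen, Cidea, the CIDE gene of brown fat that also appears in fatty liver, was uneven in the livers. It measured 702 normalized counts in Mrps12+/+ liver 2 and 647 in liver 3, the 2 livers with the most Plin2 and Cidec, and 0.700 to 50.0 in the other 7. Liver 2 was also highest for Adipoq (118), Lep (204), Plin1 (111) and skeletal muscle transcripts (27366 over 10 genes). In liver 3 Adipoq was 2.40, Lep 6.50 and Plin1 1.60. The part of such transcripts in the Cidea values was not tested. Hsd17b13, a droplet enzyme of hepatocytes, was highest in Mrps12+/+ liver 3 at 36418 and lay between 21276 and 26671 in the other livers. In the hearts Cidea was 3547 in Mrps12+/+ heart 3, the heart with the most Cidec, and 1014 to 1434 in the other 8. Heart 3 was also highest for Ucp1 (8557) and Plin1 (2893), and their part in the value was not tested.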
